A study of Mus musculus with 4 samples.

Results

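Uroplakins are the membrane proteins of the apical plaques of superficial (S) cells, the luminal cells of the urothelium that lines the ureter and bladder. The tetraspanins UPK1A and UPK1B each pair with a single-span partner, UPK1A with UPK2 and UPK1B with UPK3A or UPK3B, and the pairs leave the endoplasmic reticulum together and assemble into plaques that contribute to the urinary barrier. PPARG is a nuclear receptor that binds DNA together with a retinoid X receptor, and it is known as a regulator of urothelial differentiation. All probes on the array that carry the gene name Upk1a, Upk1b, Upk2, Upk3a or Upk3b were taken, which gave 5 probes for 5 genes, out of 39429 probes and 29924 gene names. Each gene had 1 probe, printed as 4 spots per array, and all 5 probes passed the filter on dim signals.

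The samples were ureters of NMRI mice, dissected at P0 and cultured for 8 d with DMSO or with 2 µM purmorphamine, an agonist of SHH signaling. Pparg-cKO ureters carried Pax2-cre/+; Pparg (fl/fl), and control ureters carried Pparg (fl/?) without cre. Each of the 4 groups had 2 RNA pools, 1 male (replicate 1) and 1 female (replicate 2), and the pools were hybridized to 4 two-color arrays, each with both treatments of 1 genotype and 1 sex. The dyes were exchanged between the sexes, so that sex, dye and replicate number are the same split and cannot be told apart. The labels and methods do not say how many ureters a pool held, so p-values measure the spread between these pools only. Per the study, Pax2-cre recombines in the ureteric epithelium, the nephric duct and the collecting ducts of the kidney. These whole-ureter pools also contain mesenchyme, in which recombination was not checked here.

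All values below are normalized log2 intensities or differences of them, and a difference of 1 is a 2-fold change. Levels of different probes are not comparable, so only differences are set beside each other. The share of spots well above background was 66.3% to 70.5% over the 8 channels. The 5 uroplakin probes passed that limit on all their spots in every channel, and none of their spots was saturated. The Pparg probe read 14.79 and 15.31 in control and 15.55 and 15.58 in Pparg-cKO pools with DMSO, and 15.10 and 15.18 in control and 15.95 and 16.10 in Pparg-cKO pools with purmorphamine. Since cre removes exons 2 and 3 and leaves a transcript for a truncated protein, this level does not check the genotype.

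The probes are shown by their last 30 bases, because they define which RNA each value measures. Coordinates are those of mm9 in the scanner files, the strand is that of the transcript, and capitals mark the AATAAA polyadenylation signal. Those letters, which lie near the end of many transcripts, stand in the probes of Upk1a and Upk2. The Upk3a probe of 60 bases spans 902 bases of the genome, as a probe across an intron does.
Upk1a probe at chr7:31388111-31388170 (- strand): gttggctggacacccAATAAAtactggctg
Upk1b probe at chr16:38773859-38773918 (- strand): gacgactctcattcctgtctatgtttaatg
Upk2 probe at chr9:44260822-44260881 (- strand): ctcttaactgtacttaattctcacAATAAA
Upk3a probe at chr15:84851819-84852720 (+ strand): aaatgacacacgactcacagatcacccagg
Upk3b probe at chr5:136520522-136520581 (+ strand): tggctattaatgacagtcggctacctagcc

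No pair of these probes, with those of the paralog Upk3bl included, shared a run of over 7 bases, apart from the 2 overlapping probes of Upk3bl itself. Upk3b and Upk3bl are neighbors on chromosome 5 with 0 annotated genes between them.

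With DMSO, 3 of the 5 uroplakin genes fell in Pparg-cKO ureters by limma with Benjamini-Hochberg adjustment, against 1.67% of all 27064 tested probes that passed in that direction. All 5 differences were negative, with a median of -1.31, where the median over all genes tested was 0.0042. Upk3b, Upk1a and Upk1b had the larger decreases, Upk2 was lower but missed the threshold, and Upk3a had the smallest difference. Because whole ureters were measured, fewer uroplakin-expressing cells and less RNA per cell cannot be told apart in any of these values. Per the study, these are not S cells alone. UPK1B and UPK2 weakly stained intermediate cells, which lie under the S cells, and Upk3b RNA was seen in both cell types. The part of each cell type in these values was not tested.

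Among the tetraspanins, Upk1a, whose product is the partner of UPK2, read 14.86 (male) and 15.38 (female) in control pools, and 13.82 and 13.74 in the corresponding Pparg-cKO pools. The difference between the genotypes was larger than the 0.51 between the control pools. Upk1a fell by 1.34 (SE 0.23, adjusted p = 0.0314), a 2.53-fold decrease, with -1.04 for males and -1.64 for females. Upk1b, the partner of UPK3A and UPK3B, read 14.62 and 14.96 in control and 13.47 and 13.49 in Pparg-cKO pools. It fell by 1.31 (SE 0.17, adjusted p = 0.0112), with -1.15 for males and -1.47 for females. The tetraspanins thus had like decreases. In each the female pair differed more than the male pair, as it did for the other uroplakin genes.

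Among the single-span partners, Upk3b read 12.54 and 12.85 in control and 10.81 and 10.92 in Pparg-cKO pools. It fell by 1.83 (SE 0.18, adjusted p = 0.00575), a 3.56-fold decrease, and ranked 82 from the most negative among 20223 genes. Upk2 read 15.31 and 15.72 in control and 14.68 and 14.76 in Pparg-cKO pools. Its difference of -0.80 (SE 0.17, 95% interval -1.21 to -0.39) had an adjusted p of 0.0641. Upk3a read 15.88 and 16.08 in control and 15.83 and 15.64 in Pparg-cKO pools, so that the male pools were nearly level. Its difference was -0.24 (SE 0.12, 95% interval -0.53 to 0.05, adjusted p = 0.435), with -0.05 for males and -0.43 for females. The partners of UPK1B therefore lay at the opposite ends of the range, with Upk3b the most and Upk3a the least reduced.

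The methods' own criterion, an intensity threshold of 100 and a change of 1.5-fold or more in both arrays, counted Upk2 as well. Here the threshold was applied to the brighter pool of a pair, and the change had to have the same sign in males and females. On processed signals scaled to a 75th percentile of 1500, 4 of the 5 genes were lower in Pparg-cKO ureters with DMSO, as were 2.66% of the probes above that intensity. Upk2 was 1.71-fold lower in males and 1.88-fold lower in females, and Upk3a 1.10-fold and 1.29-fold. This criterion carries no test. Without the female control array (replicate 2) 0 of the 5 genes passed by limma, and without any one of the other arrays 1 did, although the 3 called genes kept differences between -1.08 and -1.99 in all alternatives. The call of Upk1a was lost in 7 of 12 alternatives, among them scaled processed signals (adjusted p = 0.0581) and no filter on dim probes (adjusted p = 0.0571), and Upk2 passed in 1, a trended and robust prior (adjusted p = 0.0437).

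**Figure D1:**
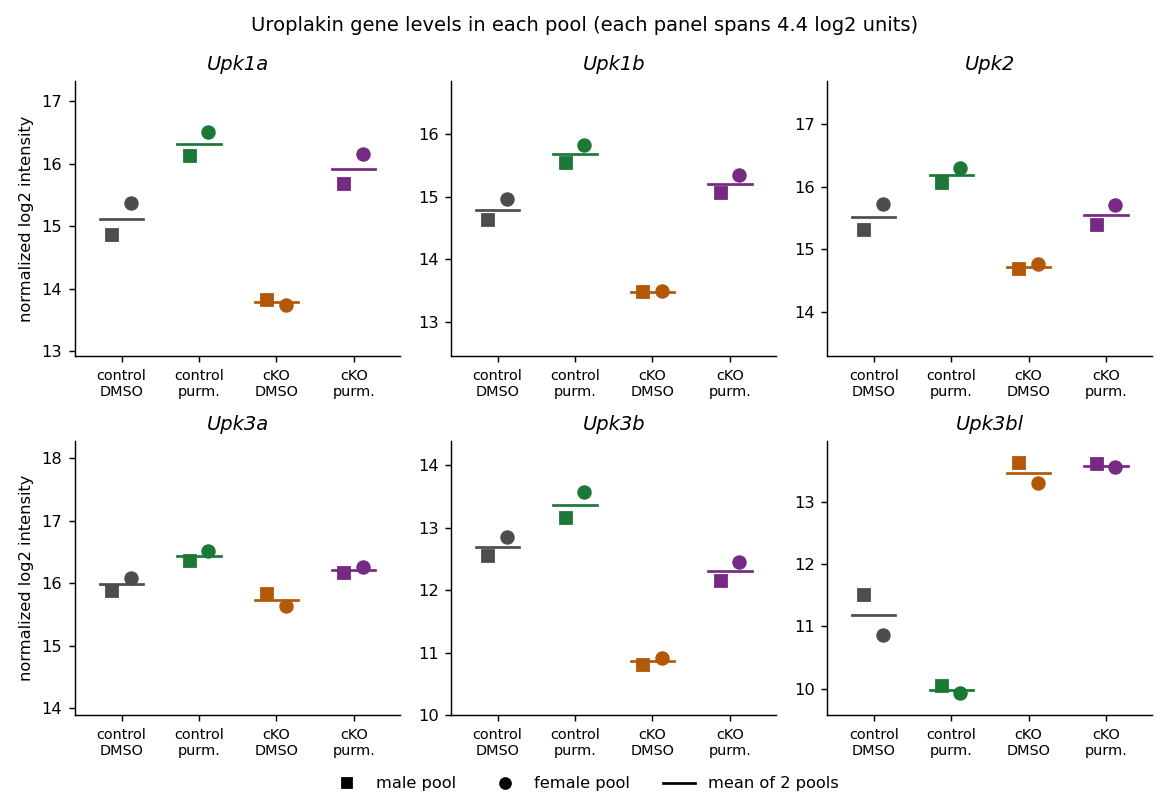
Normalized log2 intensity of the 5 uroplakin genes and of the paralog Upk3bl in each of the 8 pools, with squares for male and circles for female pools and a line at the mean of each group of 2. Every panel spans the same range of log2 units but has its own position. With DMSO, the male Pparg-cKO pool of Upk3a lies at 15.83, just under the male control pool at 15.88.

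With purmorphamine in both genotypes, the estimated distance to control was smaller for Upk1a, Upk1b and Upk3b than with DMSO, and the test of that change is the interaction given further on. Upk3b was the 1 gene of 5 that was called lower in treated Pparg-cKO than in treated control ureters, against 1.59% of all probes tested in that direction. The Upk3b pools read 13.16 and 13.58 in control and 12.15 and 12.45 in Pparg-cKO ureters, a difference of -1.07 (SE 0.18, adjusted p = 0.0367). The other 4 differences were also negative. Upk1a pools overlapped, with 16.13 and 16.51 in control and 15.68 and 16.16 in Pparg-cKO ureters and a difference of -0.40 (SE 0.23, 95% interval -0.95 to 0.16, adjusted p = 0.493). Upk1b differed by -0.48 (SE 0.17, adjusted p = 0.222), Upk2 by -0.63 (SE 0.17, adjusted p = 0.13) and Upk3a by -0.24 (SE 0.12, adjusted p = 0.409). The Upk2 and Upk3a differences were thus close to those with DMSO, -0.80 and -0.24, while that of Upk1a was -0.40 in place of -1.34. By the criterion of the methods, Upk3b alone passed as lower (2.93% of probes), 2.07-fold in males and 2.09-fold in females. The limma call of Upk3b was lost without any one of the 4 arrays, with differences of -0.86 to -1.28 and adjusted p of 0.103 to 0.298, and with processed signals (adjusted p = 0.08) or without the filter on dim probes (adjusted p = 0.058).

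**Figure D2:**
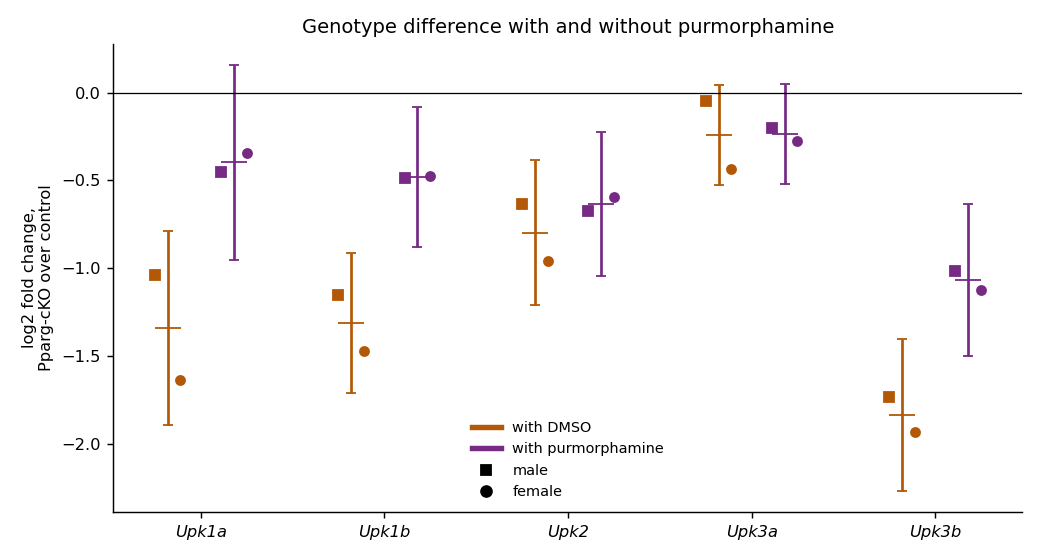
Log2 fold change of Pparg-cKO over control ureters for each uroplakin gene, with DMSO and with purmorphamine. Horizontal marks with bars are limma estimates with 95% intervals, and squares and circles are the male and the female pair. The differences for Upk1a, Upk1b and Upk3b are nearer 0 with purmorphamine, and those of Upk2 and Upk3a lie close together under both treatments.

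Purmorphamine raised 4 of the 5 uroplakin genes in Pparg-cKO ureters, against 1.76% of all tested probes that passed in that direction. The median log2 ratio of the 5 genes was 1.44, where all genes tested had a median of -0.0024. Upk1a rose by 2.14 (SE 0.16, adjusted p = 0.0144), a 4.4-fold increase that ranked 22 from the highest among 20223 genes. Its log2 ratio was 1.85 for males and 2.42 for females. Upk1b rose by 1.72 (SE 0.12, adjusted p = 0.0142), with 1.58 and 1.86, and Upk3b by 1.44 (SE 0.11, adjusted p = 0.0144), with 1.34 and 1.53. Upk2 rose less, by 0.84 (SE 0.12, adjusted p = 0.0352), with 0.71 and 0.96. Upk3a had ratios of 0.33 and 0.61 and a mean of 0.47 (SE 0.12, adjusted p = 0.1). For each of the 5 genes the female array had the larger ratio.

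All 4 calls were lost when limma was run on the scaled processed signals (lowest adjusted p 0.0853) or with a trended and robust prior (adjusted p 0.127 for each), settings under which 0 probes of the whole array passed in this comparison. Without the female Pparg-cKO array (replicate 2) Upk1a and Upk1b passed, Upk3b had an adjusted p of 0.063 and Upk2 one of 0.313, and over all alternatives the log2 ratios of the called genes were 0.71 to 2.42. The call of Upk2 was lost in 8 of 12 alternatives, also with median centering (adjusted p = 0.0976), without the filter on dim probes (adjusted p = 0.0588) and without the male Pparg-cKO array (adjusted p = 0.0707). By the criterion of the methods 4 of the 5 genes were higher in treated Pparg-cKO ureters, as were 3.61% of the probes. Upk1a was 3.69-fold higher in males and 5.42-fold in females, and Upk3a 1.25-fold and 1.53-fold.

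In control ureters all 5 log2 ratios were positive on both arrays, but 0 of the 5 genes passed limma's threshold, against 0.277% of all tested probes that passed as higher. Upk1a had ratios of 1.26 (male) and 1.13 (female), with a mean of 1.20 (SE 0.16, 95% interval 0.78 to 1.62, adjusted p = 0.0541). Upk1b had ratios of 0.91 and 0.87 and a mean of 0.89 (SE 0.12, adjusted p = 0.051). Upk2 and Upk3b both had a mean of 0.67, with adjusted p of 0.0841 and 0.0749, and Upk3a had a mean of 0.47 (adjusted p = 0.137). All 5 had an unadjusted p under 0.05, as had 3966 of the 20223 genes tested. The control pools with purmorphamine were the highest of all groups for every uroplakin gene by the group mean. By the criterion of the methods, 4 of the 5 genes were higher in treated control ureters (2.44% of probes), between 1.54-fold and 2.39-fold, and Upk3a was 1.37-fold and 1.40-fold higher. Without either one of the Pparg-cKO arrays, which removes their spread from the fit, Upk1a and Upk1b passed (adjusted p 0.0186 and 0.0385), and with median centering in place of loess Upk1a did (adjusted p = 0.0355).

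**Figure D3:**
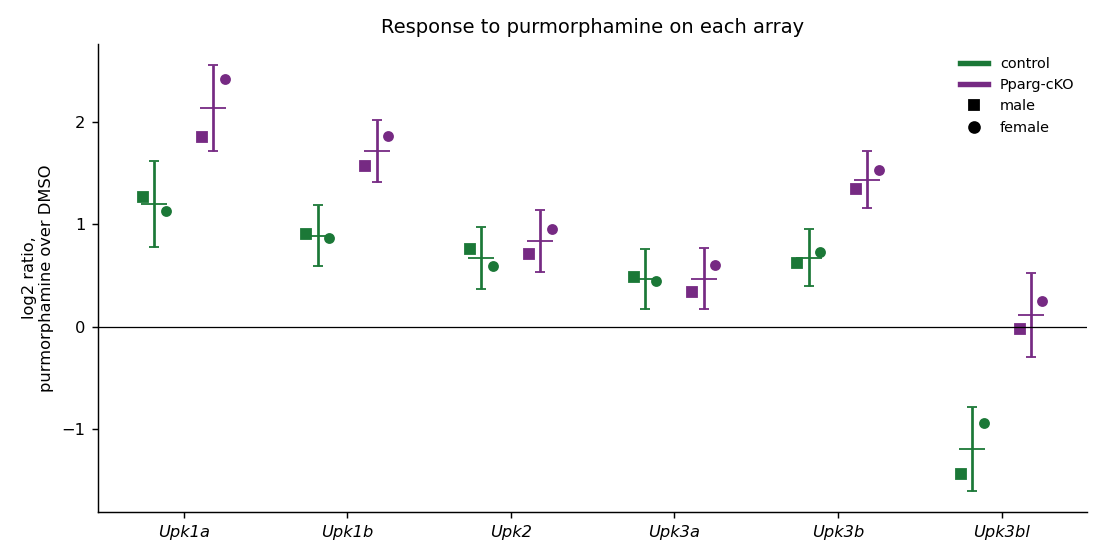
Log2 ratio of purmorphamine over DMSO within each array for the uroplakin genes and Upk3bl, in control and in Pparg-cKO ureters. Horizontal marks with bars are limma estimates with 95% intervals, squares male and circles female arrays. Ratios in Pparg-cKO ureters exceed those in control ureters on both arrays for Upk1a, Upk1b and Upk3b, and Upk3bl lies at -1.44 and -0.94 in control ureters and at -0.02 and 0.25 in Pparg-cKO ureters.

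The difference of the purmorphamine effect between the genotypes was tested as an interaction. It was called for 0 of the 5 genes and for 0% of all tested probes, and the lowest adjusted p over all genes was 0.981. The unadjusted p was 0.00939 for Upk1a (difference 0.94, SE 0.23), 0.00403 for Upk1b (0.83, SE 0.17) and 0.00418 for Upk3b (0.76, SE 0.15), and 668 of the 20223 genes had one under 0.05. Upk2 had a difference of 0.16 (95% interval -0.26 to 0.59) and Upk3a one of 0.0021 (95% interval -0.42 to 0.42). A larger response in Pparg-cKO ureters was therefore not established for any uroplakin gene after adjustment. For Upk1a, Upk1b and Upk3b the Pparg-cKO ratio was above the control ratio in both sexes.

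Treated Pparg-cKO ureters were also set against DMSO-treated control ureters, which asks how far a level came back. Here 0 of the 5 genes were called in either direction. Of all 27064 probes tested, 2853 were called, 1388 of them as higher (5.13% of those tested). Upk1a lay above the vehicle control, with 15.68 and 16.16 against 14.86 and 15.38, a difference of 0.80 (SE 0.23, adjusted p = 0.0768). Upk1b differed by 0.41 (adjusted p = 0.169), Upk3a by 0.23 (adjusted p = 0.269) and Upk2 by 0.04 (95% interval -0.37 to 0.45). Upk3b alone was negative, with 12.15 and 12.45 against 12.54 and 12.85 and a difference of -0.39 (SE 0.18, 95% interval -0.83 to 0.04, adjusted p = 0.218). By the criterion of the methods 1 of the 5 genes was higher than in vehicle controls (4.8% of probes), Upk1a, by 1.65-fold in males and 1.79-fold in females. As a share of the log2 difference between the genotypes with DMSO, the gain with purmorphamine in Pparg-cKO ureters was 78.5% for Upk3b (77.5% in males and 79.4% in females), 105% for Upk2, 131% for Upk1b and 160% for Upk1a. The genotype differences of Upk2 and Upk3a were not called, and no share is given for Upk3a, because its difference in males was only -0.05. These shares use the DMSO-treated Pparg-cKO pools in both terms and are descriptions without a test.

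The 5 genes were also compared with each other by their ratios on the 4 arrays. Of 10 pairs, 9 kept the same sign on all 4 arrays, which gives the smallest p that an exact two-sided sign-flip permutation test over 4 arrays allows, 0.125 (0.139 after adjustment over the 10 pairs), so that no pair could pass 0.05. Upk1a had the highest ratio on every array, 0.36 (SD 0.14) above Upk1b and 1.20 (SD 0.56) above Upk3a. Upk1b exceeded Upk3b by 0.25 (SD 0.08). Upk3a had the lowest ratio on every array and lay 0.59 below Upk3b on average, at -0.13 and -0.28 in control and -1.01 and -0.93 in Pparg-cKO ureters. Upk2 and Upk3b, which changed places between arrays, had a mean difference of -0.30 (SD 0.36, exact p = 0.25). Within the heterodimers, UPK1A and UPK2 were encoded by transcripts whose ratios differed by 0.51 and 0.54 in control and by 1.14 and 1.46 in Pparg-cKO ureters.

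The paralog Upk3bl, a gene of the uroplakin 3 family next to Upk3b, ran the other way. It read 11.50 and 10.87 in control and 13.62 and 13.30 in Pparg-cKO pools with DMSO, and 9.93 to 10.05 in control and 13.55 to 13.60 in Pparg-cKO pools with purmorphamine. Upk3bl rose by 2.27 in Pparg-cKO ureters with DMSO (SE 0.21, adjusted p = 0.00441), where Upk3b fell by 1.83, and by 3.58 with purmorphamine (SE 0.21, adjusted p = 0.00154), an 11.99-fold difference. With purmorphamine its log2 ratio was -1.44 and -0.94 in control ureters (mean -1.19, adjusted p = 0.0519) and -0.02 and 0.25 in Pparg-cKO ureters (mean 0.12, adjusted p = 0.776). The other Upk3bl probe, which overlaps the first, had means of 2.26, 3.54, -1.14 and 0.13 in these comparisons, and the third of them passed (adjusted p = 0.0461). The interaction had an unadjusted p of 0.00209 and an adjusted p of 0.9999.

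Promoter sequence was on hand for 3 of the 5 genes, Upk1a, Upk3a and Upk3b, in RefSeq's annotation of GRCm38.p6. The 250 bases before each start are shown because the 3 genes differ in the size of their change, and capitals mark the motifs named below.
Upk1a promoter at chr7:30612735-30612984 (- strand): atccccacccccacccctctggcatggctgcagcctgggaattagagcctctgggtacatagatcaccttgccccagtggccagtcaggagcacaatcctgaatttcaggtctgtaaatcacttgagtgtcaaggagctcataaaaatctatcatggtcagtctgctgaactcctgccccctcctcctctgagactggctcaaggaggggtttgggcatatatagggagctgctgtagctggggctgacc
Upk3a promoter at chr15:85016891-85017140 (+ strand): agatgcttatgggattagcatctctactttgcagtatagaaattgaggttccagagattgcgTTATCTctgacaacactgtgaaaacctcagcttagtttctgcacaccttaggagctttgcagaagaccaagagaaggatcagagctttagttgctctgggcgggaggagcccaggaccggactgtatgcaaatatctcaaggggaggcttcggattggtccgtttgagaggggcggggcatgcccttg
Upk3b promoter at chr5:136038246-136038495 (+ strand): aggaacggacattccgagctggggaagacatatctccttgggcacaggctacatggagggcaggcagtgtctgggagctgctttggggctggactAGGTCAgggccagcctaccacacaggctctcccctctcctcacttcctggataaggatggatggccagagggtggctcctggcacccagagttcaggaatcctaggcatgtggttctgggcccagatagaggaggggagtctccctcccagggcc

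The window from 250 bases before to 50 bases after the start was searched on both strands for a nuclear receptor site (AGGTCA) and for its direct repeat with 1 base between, known as DR1. Sites of the SHH signaling factors GLI (GGGTGGTC) were searched as well. For grainyhead-like factors (GRHL), the whole site was AACCGGTT. The core of that site, searched on its own, was CCGGTT. A FOXA site was spelled TGTTTAC in this search. GATA factors were represented by the letters AGATAA. The AP-1 site was given as TGACTCA, the usual form. Upk3b held 1 AGGTCA on the forward strand at -155 to -150, a sequence found in 16.3% of the 32851 promoters of the same length. Upk3a held 1 AGATAA on the reverse strand at -188 to -183, found in 11.2% of promoters. Upk1a held none of the 8 patterns. The DR1 repeat occurred in 0.0396% of promoters, the GLI site in 0.807%, the GRHL site in 0.146% and its core in 6.83%, the FOXA site in 3.65% and the AP-1 site in 5.2%. These are letter matches in a short window, and the GRHL core is part of the GRHL site.

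Of 9 listed genes of membrane traffic, all tested, 2 fell in Pparg-cKO ureters with DMSO and none rose, and 4 rose with purmorphamine in Pparg-cKO ureters. Over all probes tested, 1.67% fell in the first comparison and 1.76% rose in the second. Sytl2, a RAB27 effector of vesicle docking, fell by 1.63 (adjusted p = 0.00811) and rose by 0.99 with purmorphamine (adjusted p = 0.0493). Snx31, a sorting nexin of the endosomal route of uroplakins, fell by 1.45 (adjusted p = 0.0394) and rose by 1.38 (adjusted p = 0.0476). Rab27b, a small GTPase of the fusiform vesicles, differed by -1.23 with DMSO (adjusted p = 0.0509) and rose by 1.42 (adjusted p = 0.0248). Mal, which acts in apical membrane traffic, differed by -0.45 (adjusted p = 0.0716) and rose by 0.70 (adjusted p = 0.0411). For Rab11a, Rab8a, Myo5b, Vps33a and Tollip, which act in membrane traffic of many cell types, the differences lay between -0.14 and 0.16 with DMSO and between -0.04 and 0.09 with purmorphamine, and the medians of the whole list, -0.14 and 0.09, follow them.

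The study had located 15 other genes by in situ hybridization in S cells of fetal ureters. Of these, 10 fell in Pparg-cKO ureters with DMSO and 0 rose, where 1.67% of all tested probes fell. The 15 had a median of -1.64 beside -1.31 for the uroplakin genes. The study had probed them because they were reduced in fetal Pparg-cKO ureters on other arrays, so the list is not independent evidence of a decrease, and Ivl, Fa2h, Paqr5 and Glb1l2 were seen in intermediate cells as well. The 4 with the lowest adjusted p were Fa2h, a fatty acid hydroxylase (-2.68), Krt20, the keratin of S cells (-3.70), Paqr5, a membrane progestin receptor (-1.64), and Rnf144b, an E3 ubiquitin ligase (-1.88). With purmorphamine in Pparg-cKO ureters 10 of the 15 rose, against 1.76% of all tested probes, with a median of 0.88 beside 1.44 for the uroplakin genes. Set against DMSO-treated control ureters, 1149 of all 20223 genes tested were called lower in treated Pparg-cKO ureters. The 5 uroplakin genes had 0 lower and a median of 0.23. Of the 15 S cell genes 5 were still lower, with a median of -0.70 over the 15. Krt20 read 13.62 and 14.03 in DMSO-treated control, 10.03 and 10.21 in DMSO-treated Pparg-cKO and 11.97 and 13.13 in treated Pparg-cKO pools. Whether the lists differ was not tested.

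Among 13 transcription factor genes, 12 were tested and Foxa2 was too dim. With DMSO, 357 of all 20223 genes tested fell in Pparg-cKO ureters and 387 rose. Of the 12 factors 0 fell and 1 rose, Elf5, an ETS factor, by 1.37 (adjusted p = 0.0102). Grhl3, a factor of S cell differentiation, read 14.07 and 14.38 in control and 13.37 and 13.74 in Pparg-cKO pools with DMSO, a difference of -0.67 (adjusted p = 0.12). It rose with purmorphamine in Pparg-cKO ureters by 0.75 (adjusted p = 0.0366), to 14.22 and 14.39, and had a ratio of 0.63 in control ureters (adjusted p = 0.0814). Rxra, the retinoid X receptor partner of PPARG, differed by -0.48 with DMSO (adjusted p = 0.0745). Ovol1, a zinc finger factor, differed by 1.21 (adjusted p = 0.0894), and Foxa1, Gata3, Klf5, Elf3, Irf1 and Kdm6a by -0.13 to 0.19. Trp63, a factor of basal and intermediate cells, differed by -0.51 with DMSO (adjusted p = 0.0837), and in treated ureters it was lower in Pparg-cKO than in control (-1.11, adjusted p = 0.0121). Shh, the ligand of the pathway that purmorphamine activates, fell by 2.93 in Pparg-cKO ureters with DMSO (adjusted p = 0.00264). Its feedback targets Ptch1 and Hhip rose with purmorphamine in Pparg-cKO ureters by 1.62 (adjusted p = 0.0144) and 2.19 (adjusted p = 0.0174), and Gli1 had a ratio of 1.34 (adjusted p = 0.056).

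**Figure D4:**
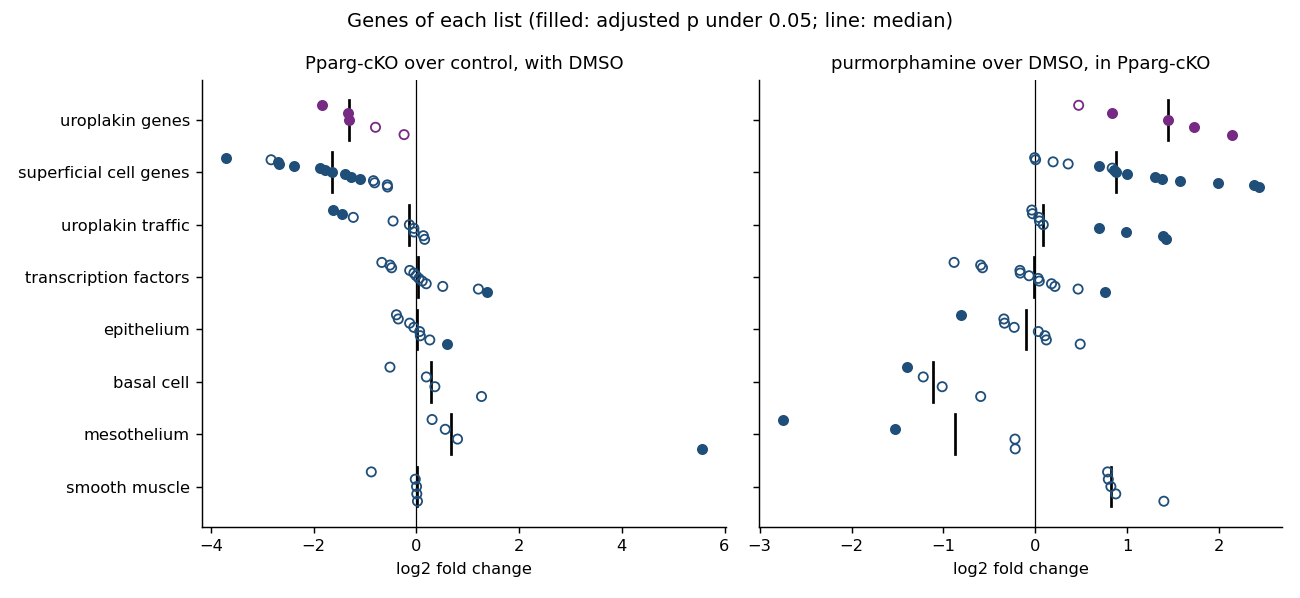
Log2 fold change of each tested gene of the uroplakin group and of 7 other lists, for Pparg-cKO over control with DMSO (left) and for purmorphamine over DMSO in Pparg-cKO ureters (right), filled where the adjusted p was under 0.05, with a line at the median. Uroplakin and other S cell genes lie left of 0 in the left panel and, apart from 1 S cell gene at -0.0080, right of 0 in the right panel, while the 8 general epithelial markers have medians of 0.0064 and -0.10.

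Markers of the tissues in the pools were read beside these values. The summed level of a list is the log2 of the sum of its probes' normalized intensities, taken before the logarithm. The brightest probes weigh most in it, so it can differ from the change of a single marker. The 8 general epithelial markers were above background in all 8 channels, and their summed level was 18.17 to 18.26 in control and 18.11 to 18.21 in Pparg-cKO pools with DMSO, and 18.12 to 18.26 over all pools with purmorphamine. Relative to the median of these markers the uroplakin differences with DMSO were -1.35 for Upk1a, -1.32 for Upk1b, -0.80 for Upk2, -0.25 for Upk3a and -1.84 for Upk3b. With purmorphamine in Pparg-cKO ureters they were 2.24, 1.82, 0.94, 0.57 and 1.54. Of these markers 1 was called in each of these comparisons, Epcam, which rose by 0.61 in Pparg-cKO ureters with DMSO (adjusted p = 0.0497) and fell by 0.81 with purmorphamine (adjusted p = 0.0387). Epcam also fell with purmorphamine in control ureters, by 0.96, and was called there too. The single markers went both ways, from -0.39 to 0.61 with DMSO and from -0.81 to 0.49 with purmorphamine in Pparg-cKO ureters, so that their median lies near 0. The part of the epithelial share in the uroplakin values was not tested.

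The 4 basal cell markers had a summed level of 17.39 to 18.01 in DMSO-treated and of 16.36 to 16.75 in purmorphamine-treated Pparg-cKO pools, and 1 of them, Krt15, fell by 1.40 there (adjusted p = 0.0245). In control pools the sum was 17.26 to 17.48 with DMSO and 16.90 to 17.16 with purmorphamine. Krt15 read 15.29 and 14.30 in control pools with DMSO, and 13.59 and 12.65 with purmorphamine. This fall of 1.67 in control ureters was also called. Smooth muscle markers, 5 of 5 above background, had a summed level of 17.82 to 17.98 in DMSO-treated and of 18.60 to 18.83 in purmorphamine-treated Pparg-cKO pools, with 0 of 5 called. Their sum in control pools was 17.67 to 18.13 with DMSO and 18.61 with purmorphamine, also with 0 of 5 called. Of 5 mesothelial markers, 3 or 4 were above background in each pool. Their summed level was 10.83 to 10.91 in control and 13.67 to 14.05 in Pparg-cKO pools with DMSO, which was carried by Msln (5.57, adjusted p = 0.00102), while Upk3b, known also from mesothelium, was lower. Fat cell markers had summed levels of 17.30 to 17.67 in control and 16.08 to 16.41 in Pparg-cKO pools with DMSO, and 14.15 (male) and 16.58 (female) in treated Pparg-cKO pools. Endothelial markers, 4 of 4 above background, summed to 12.72 to 13.39 in control and 13.64 to 13.73 in Pparg-cKO pools with DMSO, and to 14.11 to 14.13 and 14.54 to 14.72 with purmorphamine. Of these 4 markers Kdr was called higher in Pparg-cKO ureters with DMSO (0.88, adjusted p = 0.0379) and Cdh5 with purmorphamine in Pparg-cKO ureters (1.25, adjusted p = 0.0459). Leukocyte markers, 4 of 4 above background, summed to 16.65 to 16.81 in DMSO-treated and 16.09 to 16.24 in purmorphamine-treated Pparg-cKO pools, where Adgre1 fell by 1.06 (adjusted p = 0.0398). In control pools they summed to 16.58 to 16.86 with DMSO and to 15.81 to 16.34 with purmorphamine. Adgre1 read 14.32 and 14.01 in control pools with DMSO, and 13.23 and 12.84 with purmorphamine. Collecting duct markers of the kidney summed to 8.66 to 8.97 over all 8 pools, and Aldh1a2 of the lamina propria had 13.99 to 14.79. The part of these tissues in the uroplakin values was not tested.

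The genes with a pattern most like that of the uroplakin group over the 8 channels of 4 arrays were found by Pearson's r with the mean of the 5 standardized levels, among 17575 named genes. Of the 10 closest, 9 are given here, Gstm3 (0.997), Col23a1 (0.992), Gstm4 (0.991), Edar (0.989), Fam189a2 (0.988), Itpka (0.988), Pdxk (0.986), Fmo5 (0.984) and Hsd17b2 (0.984), and 111 genes had an r above 0.95. Channels of an array share a hybridization, and r has no scale, so that Itpka with a genotype difference of -0.42 with DMSO stands beside Hsd17b2 with -2.38. Gstm3 and Gstm4 encode glutathione S-transferases and lie in a family of near-identical genes. Hsd17b2, a steroid dehydrogenase, is also one of the 15 S cell genes. The uroplakin genes themselves had r of 0.854 (Upk3a and Upk3b) to 0.992 (Upk1a and Upk1b) with each other. Closest to single genes were Uchl1 for Upk1a (0.996), Gstm3 for Upk1b (0.994), Ermp1 for Upk2 (0.992), Ppp1r14a for Upk3a (0.991) and 1810020O05Rik for Upk3b (0.999). The last of these fell by 2.15 in Pparg-cKO ureters with DMSO (adjusted p = 0.00653) and rose by 1.74 with purmorphamine (adjusted p = 0.0152).

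**Figure D5:**
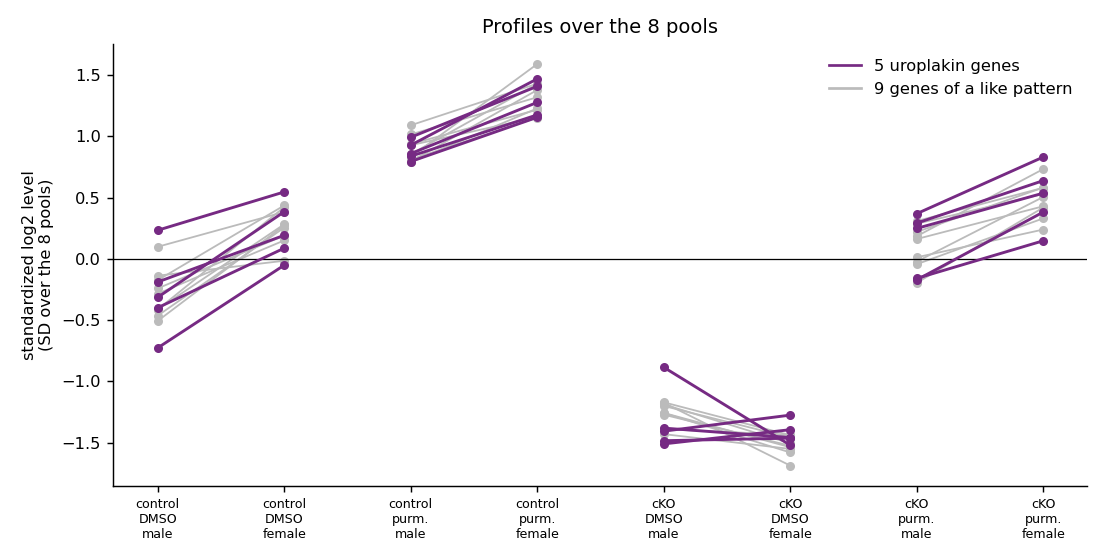
Standardized log2 level (SD over the 8 pools) of the 5 uroplakin genes and of 9 of the 10 genes whose pattern was closest to their mean, with short lines joining the male and the female pool of a group. The genes were chosen for this likeness, and all share low levels in DMSO-treated Pparg-cKO pools and high levels in treated control pools.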

How the data were processed

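RNA of 4 groups with 2 pools each was measured on 4 two-color arrays, which were on 1 slide. Per the file headers, the mean and local background intensity and the processed intensity, background-subtracted and dye-normalized, were made by Agilent Feature Extraction (10.7.3.1 per the labels, 12.2.0.7 per the file headers). The deposited log10 ratio per spot, red over green of the processed intensities, entered no test. The authors also deposited a score for each array, the fold change by purmorphamine with a minus sign where it fell, whose median was 1 on every array and whose scaling is not stated.

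Using limma 3.58.1 in R 4.3.3, intensities were corrected by normexp (offset 50) and loess, outlier spots were left out, the 4 spots of a probe averaged, and channels normalized by Aquantile. For genotypes a separate-channel fit was used (intraspot correlation 0.058 from 4000 probes) and for purmorphamine the log ratios within arrays. The 27064 probes tested had most spots above background in 2 of 2 pools of some group, and p-values were adjusted over all of them by Benjamini-Hochberg (threshold 0.05). The criterion of the methods used processed intensities with values under 15 set to 15. The scripts were tested on simulated data. Counts by gene (20223) took the brightest probe. All uroplakin genes, the related gene Upk3bl and the transcription factors could be named, up to 4 genes of each other list by lowest adjusted p, the genes closest in pattern, and Shh, Ptch1, Gli1 and Hhip. Of the genes closest in pattern, 1 is not reported here. The uroplakin genes and the lists were chosen with earlier results of these data known. The 2 pools of a group correlated at 0.992 to 0.995 over the tested probes. Alternatives changed the background correction, normalization, filter, prior, arrays used and block.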

Additional observations from a re-analysis of the deposited data

How the results depend on the processing

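Apart from 2 near-zero values, every difference of the 5 genes kept its sign under all alternatives tried. The interaction of Upk3a, 0.0021 in the main setting, was -0.0038 with scaled processed signals, -0.10 with median centering, -0.0080 with the deposited fold changes, and -0.13 to 0.14 when an array was left out, with -0.02 and -0.13 without the female control or the female Pparg-cKO array. The difference of Upk2 between treated Pparg-cKO and DMSO-treated control ureters, 0.04, was -0.16 to 0.24 when an array was left out, with -0.16 and -0.12 without the male control or the female Pparg-cKO array. The number of genes called moved more. With DMSO it was 3, 2 with scaled processed signals and without the filter on dim probes (Upk1a lost), 4 with a trended and robust prior (Upk2 gained), and 0 to 1 when an array was left out. With purmorphamine in both genotypes it was 1, and 0 with scaled processed signals, without the filter on dim probes, and when any array was left out. For purmorphamine in control ureters it was 0, 1 with median centering, and 0 to 2 when an array was left out. For purmorphamine in Pparg-cKO ureters it was 4, 3 with median centering and without the filter on dim probes (Upk2 lost), 2 to 4 when an array was left out, and 0 with scaled processed signals, with a trended and robust prior and, an alternative chosen after seeing the data, with the deposited fold changes. An array left out leaves 1 pool in 2 groups, which is then assumed to vary like the others, with the intraspot correlation kept at 0.058. By the criterion of the methods, a threshold of 2-fold gave 1 gene in place of 4 for purmorphamine in control ureters and 0 in place of 1 for treated Pparg-cKO against DMSO-treated control ureters. For Pparg-cKO against control with purmorphamine it gave 1, with 1 to 2 when one sex was left out and 2 on loess-normalized values.

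The replicate numbers share sex and dye but not animals, and deviations of same-numbered pools from their group means correlated at -0.17 with DMSO and 0.48 with purmorphamine. With the replicate number as a block, the count with purmorphamine in both genotypes was 0 in place of 1 (Upk3b, adjusted p = 0.0514), with DMSO 2 in place of 3 (Upk1a, adjusted p = 0.0533), and with purmorphamine in Pparg-cKO ureters 3 in place of 4 (Upk2, adjusted p = 0.0514), and over all probes 349 in place of 926 were called with DMSO. The crossed pairing, chosen after seeing the data, called 0 genes with DMSO, 0 with purmorphamine in both genotypes and 1 for purmorphamine in control ureters.

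With 2 pools per group, the spread between pools limits every p-value here. All 5 probes were well above background and unsaturated, and other limits of the signal were not tested.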

Other observations

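The 5 uroplakin genes differed between the male and the female pool of a group in a like way. In control pools the female level was the higher one for all 5 genes, by 0.20 to 0.51 with DMSO and by 0.16 to 0.42 with purmorphamine. In DMSO-treated Pparg-cKO pools the 2 levels lay within 0.19 of each other for each gene, with the male level higher for Upk1a and Upk3a. In purmorphamine-treated Pparg-cKO pools the female level was again the higher one for all 5 genes, by 0.085 to 0.49. Sex, dye and array cannot be told apart in these pools, and the difference between the sexes was not tested.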
